A study of Mus musculus with 21 samples.

Results

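The genes described here are 42 components and targets of the NF-kB pathway and of the response to tumour necrosis factor (TNF), named by symbol in a list, with no threshold on their values. Of these, 38 had a row in the table of 11628 genes and all 38 passed the filter on low values. Tnf, Il1b, Cxcl2 and Cd83 are not analysed here. RNA was measured in 21 libraries of bone marrow progenitors, and every value below is in RPKM, read counts scaled to transcript length and library size, or a difference of log2(RPKM + 1). Mutant mice were homozygous for an Etv6 mutation (genotype ETV6 mt/mt), written h.P214L in the series' design text, and were compared with Wild Type mice. Etv6 is a transcriptional repressor, and the series' title places its mutation beside inflammation and disturbed lymphoid development.

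3 populations were sorted from each genotype, with 4 mutant and 3 wild-type libraries each, from mice of 10 or 12 weeks and both sexes. Haematopoietic stem cells (HSC) were lineage-negative, cKit+, Sca1+, FLK2-negative, CD150+ and CD38-negative. Multipotent progenitors with a lymphoid bias (MPP4) were lineage-negative, cKit+, Sca1+ and FLK2+. The gate of the common lymphoid progenitors (CLP) took lineage-negative cells that were IL7+, cKit-low, Sca1-low and Flk2+. No strain is given in the labels, and a substitution in the protein is not checked by the level of its transcript. Transcripts of the gate markers went with the gates, with 1 exception. Slamf1, which encodes CD150, averaged 26.7 ± 3.69 RPKM in mutant and 22.6 ± 5.26 in wild-type HSC (SD, n = 4 and 3), against 1.74 ± 0.975 in mutant and 0.849 ± 0.534 in wild-type MPP4. Il7r averaged 89.8 ± 10.7 RPKM in mutant and 91.3 ± 3.73 in wild-type CLP. Cd38, whose protein the HSC gate excludes by label, averaged 5.34 ± 1.82 RPKM in mutant and 8.39 ± 1.89 in wild-type HSC, above its 1.66 ± 0.656 and 1.67 ± 0.339 in mutant and wild-type MPP4. Cd48, which no label names, averaged 4.06 ± 1.59 RPKM in mutant and 4.71 ± 1.09 in wild-type HSC, against 125 ± 14.3 in mutant and 169 ± 18 in wild-type MPP4. Whether the label names the intended marker is not settled by the files.

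In resting cells NF-kB dimers are held in the cytoplasm by IkB proteins. TNF, interleukin-1 and microbial products act through receptor complexes of TRAF adaptors, RIP kinases and ubiquitin ligases to switch on the IkB kinases, which mark IkB for destruction and free the dimers to enter the nucleus. Among the genes then transcribed are IkB alpha and other inhibitors that shut the signal down, so the pathway's targets include its own brakes. In the marrow the pathway is known for its part in emergency blood formation, stem cell maintenance and lymphocyte survival.

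The motif that NF-kB binds stood in the promoters of several members, and a few are shown for genes whose levels are described below. The kappaB consensus, the only motif searched, looked for on both strands in windows of 250 bases before to 50 after each RefSeq start (GRCm38.p6), was found in 17 of 40 windows of the members (42.5%), against 1907 of 32851 windows of all genes (5.80%). By gene, 12 of the 29 members with a window held it (41.4%), against 783 of 9395 genes of the table (8.33%). The 12 did not include Traf1, Ier3, Ccl3 or Ccl4, which are also described below, and not every member had a window. This describes letters, not binding, and was not tested. The stretches below run 5′ to 3′ on the gene's strand, with matches in capitals, for 3 inhibitors, 2 subunits and 1 target whose levels are described further on. Their positions are chr12:55492648-55492696 (minus strand) for Nfkbia, chr10:19015411-19015442 (minus) for Tnfaip3, chr11:54962968-54963017 (minus) for Tnip1, chr19:46304678-46304736 (plus) for Nfkb2, chr11:23771031-23771081 (minus) for Rel and chr12:111442617-111442660 (plus) for Tnfaip2.
Nfkbia: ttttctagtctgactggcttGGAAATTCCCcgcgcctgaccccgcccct
Tnfaip3: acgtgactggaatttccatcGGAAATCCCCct
Tnip1: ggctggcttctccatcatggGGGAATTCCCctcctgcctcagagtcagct
Nfkb2: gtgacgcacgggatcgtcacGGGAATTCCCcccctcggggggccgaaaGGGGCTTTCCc
Rel: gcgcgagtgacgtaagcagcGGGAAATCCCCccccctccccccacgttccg
Tnfaip2: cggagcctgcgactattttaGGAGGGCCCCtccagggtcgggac

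Every library expressed the core of the pathway. Group means of the 38 members ran from 1.01 to 142 RPKM, and their median lay between 10.3 and 14.2 RPKM, where the median of all genes tested lay between 12.4 and 13.8 RPKM. Sqstm1, the autophagy adaptor that also scaffolds NF-kB signalling, was the highest, at 107 to 142 RPKM over the 6 groups. Nfkbia, which encodes IkB alpha, came next with Rela. Across the 6 group means, 23 members varied by less than 1.5 times, 7 by 1.5 to 2 times and 8 by more than 2 times. These 8 were Rel, Bcl3, Traf1, Tnip1, Tnfaip2, Ier3, Ccl3 and Ccl4. Of the kinase complex that the pathway turns on, Ikbkg, its regulatory subunit, spanned 1.04 times, Ikbkb, its catalytic beta subunit, 1.06 times and Chuk, its alpha subunit, 1.21 times between the highest and lowest group.

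Libraries were alike in scale, with RPKM sums of 337818 to 376135, and libraries of 1 group correlated at 0.968 to 0.990 over genes. Some stood apart. Wild-type HSC replicate 3, the only 10-week library of its group, was the highest of 7 HSC libraries for 16 of 38 members. The same count was not taken over all genes, so it is not read as a trait of the members. Calls of members that were lost without this library are named below with the value without it. Genes outside the 38 were not read without it. Wild-type HSC replicate 2 had summed neutrophil markers (9 of 11 with a row) of 1450 RPKM, against 164 and 171 in the other wild-type HSC libraries. Mutant CLP replicates 2 and 4 had 1750 and 2120 RPKM of the same markers, against 239 and 316 in the other mutant CLP libraries. Mutant MPP4 replicate 2 had 2340 RPKM, where the other mutant MPP4 libraries had 749 to 970. The 6 megakaryocyte markers summed to 182 RPKM in mutant MPP4 replicate 1, against 23.8 to 28.7 in the other mutant MPP4 libraries, and to 172 RPKM in wild-type MPP4 replicate 1, against 12.4 and 13.1 in the other wild-type ones. In bulk RNA, fewer cells of a type and less RNA per cell cannot be told apart.

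**Figure D1:**
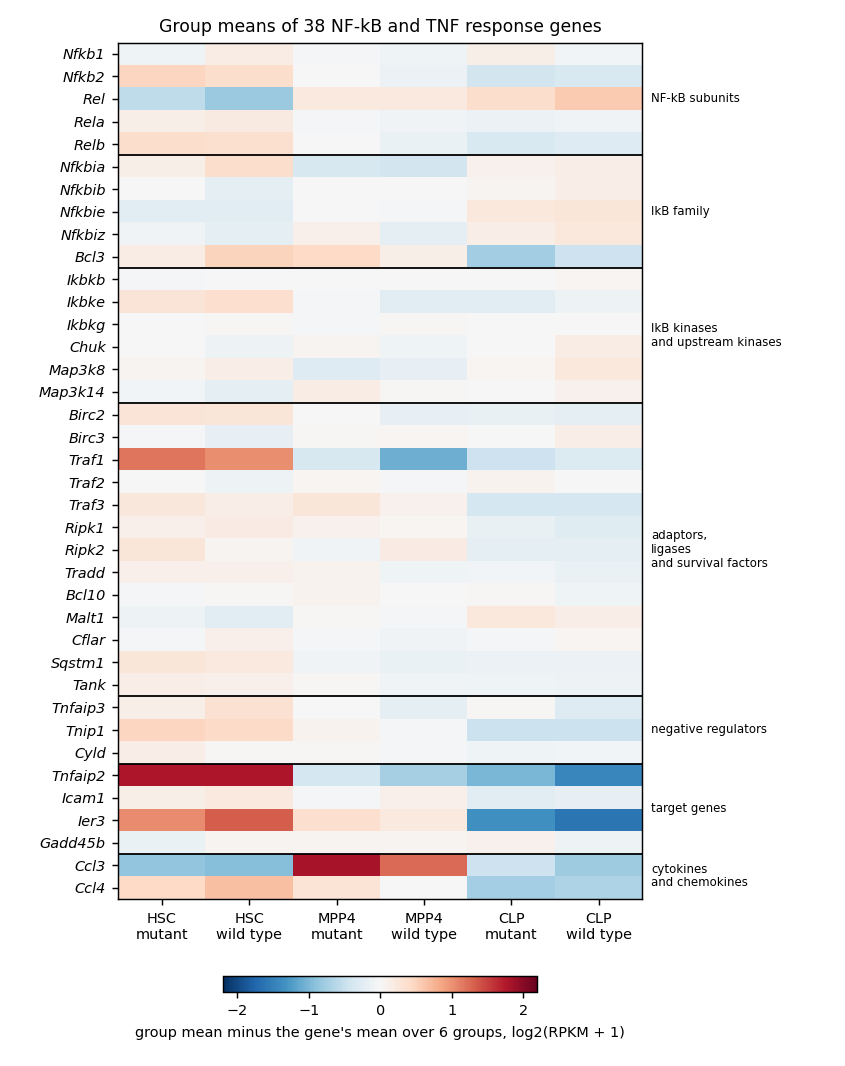
Mean level of each of the 38 genes in the 6 groups, as the group mean of log2(RPKM + 1) minus the gene's mean over the groups, ordered by role. Tnfaip2, Ier3 and Traf1 are highest in both HSC columns, Ccl3 is highest in both MPP4 columns, and most rows are nearly white, among them 23 genes that vary by less than 1.5 times.

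The comparison the study was built on, mutant against wild type within a population, found no member changed. Calls rest on limma, with p-values adjusted over all 11496 genes by the Benjamini-Hochberg method and a threshold of 0.05. In HSC 0 of 38 members were called (0.0522% of all genes were), and 2 had an unadjusted p under 0.05, where 4.45% of all genes did. In MPP4 0 members were called (0.217% of all genes), and 1 had an unadjusted p under 0.05, where 8.14% of all genes did. In CLP 0 members were called (0% of all genes), and 0 had an unadjusted p under 0.05, where 4.41% of all genes did. Under 18 alternative settings for each population the count stayed at 0. The estimates were nonetheless bounded on the scale of RPKM + 1. On it the 95% interval of the mutant effect lay within 2-fold in either direction for all 38 members in HSC. The same held for 36 in MPP4 and for 37 in CLP, the exceptions being Traf1 and Ccl3 in MPP4 and Tnfaip2 in CLP. For genes of a few RPKM this scale understates changes, so these limits do not bound the fold change of RPKM itself.

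**Figure D2:**
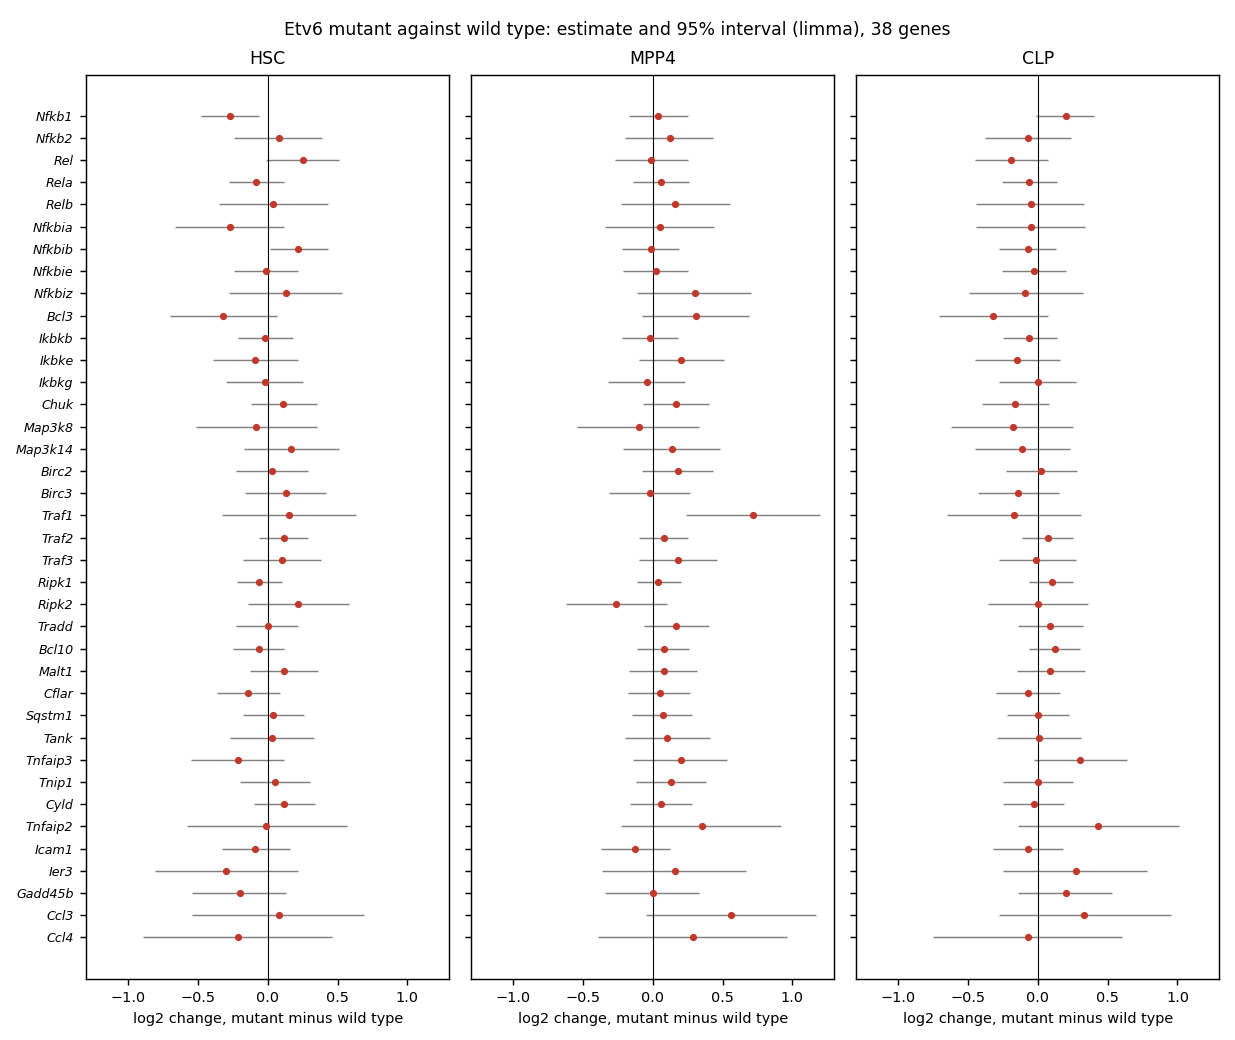
Mutant minus wild-type log2 change of each of the 38 genes in HSC, MPP4 and CLP, with its 95% interval from limma. Points scatter on both sides of 0 in HSC and CLP, 29 of 38 lie above 0 in MPP4, and none was called.

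Among the subunits, Nfkb1, whose product is the precursor of a DNA-binding subunit, had the smallest p of the members in mutant HSC. Its level was 28.3, 25.8, 28.4 and 25.4 RPKM in mutant HSC, against 34.2, 29.2 and 35.0 RPKM in wild-type HSC. All 4 mutant libraries lay below all 3 wild-type ones, the only member for which the HSC groups did not overlap (5.25% of all genes did not). The log2 change was -0.27 ± 0.10 (SE), unadjusted p = 0.0143 and adjusted p = 0.924 in limma. In CLP the same gene had 29.4, 31.0, 36.2 and 31.5 RPKM in mutant libraries, against 27.5, 31.2 and 24.9 RPKM in wild-type ones. The groups overlapped, with a log2 change of 0.20 ± 0.10 and an adjusted p of 1. The mutant effect on Nfkb1 differed between CLP and HSC by 0.46 ± 0.14 on the log2 scale, with an unadjusted p of 0.00381 and an adjusted p of 1 in limma.

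Rel, the subunit c-Rel of lymphoid and myeloid cells, had 6.12, 8.21, 8.63 and 8.98 RPKM in mutant HSC, against 6.28, 5.94 and 7.31 RPKM in wild-type HSC. 3 of 4 mutant libraries exceeded every wild-type one, with a log2 change of 0.25 ± 0.12 that was not called (limma, adjusted p = 1). Nfkbib, the inhibitor IkB beta, had a log2 change of 0.22 ± 0.10 in HSC (unadjusted p = 0.0358, adjusted p = 1). Its exons share 14.8% of their bases with Ccer2 on the opposite strand, and the kit does not mark strand. The atypical IkB protein Bcl3, which acts in the nucleus with subunit homodimers, had 9.55, 8.94, 7.64 and 7.49 RPKM in mutant HSC, against 8.41, 9.41 and 15.2 RPKM in wild-type HSC. The 15.2 RPKM was that of wild-type replicate 3, and the log2 change of -0.32 ± 0.19 became -0.08 without it. Nfkbia was alike in this: its log2 change of -0.27 ± 0.19 in mutant HSC became -0.05 without wild-type replicate 3, which had 140 RPKM.

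In MPP4 the smallest p belonged to Traf1, an adaptor of TNF receptors that NF-kB itself induces. Traf1 was present at 2.51, 2.43, 2.56 and 1.70 RPKM in mutant MPP4, against 0.947, 0.762 and 1.31 RPKM in wild-type MPP4. No mutant library fell to the wild-type range. The log2 change was 0.72 ± 0.23 with a 95% interval of 0.24 to 1.2, unadjusted p = 0.00545 and adjusted p = 0.296 in limma, so it was not called. Levels near 1 RPKM are compressed on this scale, and the change was 1.13 with a pseudocount of 0.1 in place of 1 (adjusted p = 0.234). Over the alternatives the adjusted p of Traf1 ranged from 0.103 to 0.611.

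Marker sums of other cell types and stages were also read in MPP4. The 9 stem cell markers summed to 331 to 352 RPKM in mutant MPP4 against 241 to 274 in wild-type MPP4. The 6 markers of the MPP4 gate and of lymphoid priming summed to 1530 to 1750 RPKM against 1980 to 2270. Among them Dntt averaged 527 RPKM in mutant and 889 in wild-type MPP4. Flt3, which encodes FLK2, averaged 383 and 384 RPKM, and Cd34 388 and 370. The 6 markers of the CLP list summed to 30.8 to 46.5 RPKM in mutant and 44.7 to 107 in wild-type MPP4, which overlapped. Erythroid markers, 7 of 9 with a row, summed to 1910 to 4490 RPKM in mutant and 288 to 2710 in wild-type MPP4. These ranges overlapped. Largest among the erythroid markers were the globins Hbb-bs, at 1590 RPKM in mutant and 777 in wild-type MPP4 on average, and Hba-a2, at 1220 and 625. Immediate early and heat shock genes, of which 15 of 21 had a row, averaged 3.91 to 4.22 (log2 scale) in mutant MPP4 libraries and 3.81 to 3.89 in wild-type ones. None of these markers stood at 0 in every library of a group, and their part in the MPP4 values was not tested.

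The chemokine gene Ccl3 had 31.9, 41.3, 45.7 and 46.0 RPKM in mutant MPP4, against 23.5, 26.0 and 33.5 RPKM in wild-type MPP4. The lowest mutant library lay within the wild-type range. Its log2 change was 0.56 ± 0.29 (limma, adjusted p = 0.669). Bcl3 (0.31 ± 0.19), the receptor adaptor Tradd (0.17 ± 0.11) and the nuclear IkB protein Nfkbiz (0.30 ± 0.19) followed, with adjusted p-values of 0.748 to 0.782. In 3 members, Traf1, Tradd and Nfkbiz, all mutant MPP4 libraries exceeded all wild-type ones, and 10.1% of all genes were without overlap in that population. Over the members, 29 of 38 had a positive change in MPP4 with a median of 0.08, where 6419 of 11496 genes were positive with a median of 0.02. The count of positive members was 26 to 32 over the 18 alternatives. In HSC 19 of 38 and in CLP 15 of 38 members were positive, beside 6179 and 5893 of 11496 genes. Members read in the same libraries are not independent, and these counts were not tested.

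In CLP, after Nfkb1, the smallest p-values were those of Tnfaip3, which encodes the ubiquitin-editing inhibitor of the pathway (log2 change 0.30 ± 0.16), Bcl3 (-0.32 ± 0.19), Tnfaip2 (0.43 ± 0.28) and Rel (-0.19 ± 0.12), each with an adjusted p of 1 in limma. Tnfaip2, a gene induced by TNF, had 1.98, 2.65, 2.18 and 6.96 RPKM in mutant CLP, against 1.58, 2.77 and 1.82 RPKM in wild-type CLP. Without mutant replicate 4, the highest library, its log2 change was 0.11. That library had 2120 RPKM of neutrophil and 571 RPKM of monocyte and macrophage markers, where mutant replicate 2 had 1750 and 449 RPKM with 2.65 RPKM of Tnfaip2, and the markers' part was not tested. All mutant CLP libraries exceeded the wild-type ones for Ripk1, the kinase of the TNF receptor complex, and fell below them for Chuk, the IkB kinase alpha, without a call, and 4.12% of all genes did not overlap in CLP.

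Whether the mutant effect differed between populations was tested directly, and no member was called in any of the 3 differences. For MPP4 minus HSC 0 of 38 members were called (0% of all genes) and 2 had an unadjusted p under 0.05 (3.79% of all genes). Bcl3 led, with a difference of 0.62 ± 0.26 (limma, unadjusted p = 0.0279, adjusted p = 1) that was 0.39 without wild-type HSC replicate 3. Nfkb1 (0.31 ± 0.14), Ripk2 (-0.47 ± 0.24), a kinase that relays signals of bacterial cell wall sensors, Tnfaip3 (0.41 ± 0.23) and Traf1 (0.57 ± 0.32) followed. For CLP minus MPP4 0 were called (0% of all genes) and 2 had an unadjusted p under 0.05 (3.84% of all genes), Traf1 (-0.88 ± 0.32) and Bcl3 (-0.63 ± 0.26), ahead of Chuk (-0.33 ± 0.16), Ikbke (-0.35 ± 0.21) and Nfkbiz (-0.38 ± 0.27). Adjusted p was 0.998 for these in limma. For CLP minus HSC 0 were called (0.0087% of all genes) and 4 had an unadjusted p under 0.05 (10.5% of members and 3.65% of all genes), namely Nfkb1, Rel (-0.44 ± 0.18), Tnfaip3 (0.52 ± 0.23) and Nfkbib (-0.29 ± 0.14). Gadd45b, a stress-induced target, came next at 0.40 ± 0.23.

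More members were called between populations than between genotypes. In wild-type mice, MPP4 against HSC called 13 of 38 members, or 34.2% (39.3% of all genes), so members were not called more often than genes at large. Of these, 2 rose and 11 fell, where 16.1% of all genes rose and 23.3% fell. The split was 3 and 10 after median-ratio scaling and 4 and 9 after quantile normalization, which ended the calls of Nfkb2 and Tnfaip3, as median-ratio scaling did for Rela. Without wild-type MPP4 replicate 2 the count was 8. In mutant mice, the same step called 10 members (39.1% of all genes), of which 2 rose and 8 fell, where 16% of all genes rose and 23.1% fell. The split was 3 and 7 after median-ratio scaling and 4 and 8 after quantile normalization. All 10 were also called in the same direction in wild type, which is 76.9% of the wild-type list. The same overlap was not computed over all genes, so it is not read as a trait of the members. Rela, Ikbke and Tnfaip3 were called in wild type alone, and their interaction terms above were not called.

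Beyond MPP4, CLP against MPP4 called 6 members in wild type (13.1% of all genes), of which 1 rose (4.77% of all genes) and 5 fell (8.38%). In the mutant 8 were called (24.3% of all genes), of which 0 rose (7.86%) and 8 fell (16.4%). Scaling moved the split to 3 and 2 in wild type and 2 and 6 in the mutant after median-ratio scaling, and to 1 and 3 in wild type and 1 and 7 in the mutant after quantile normalization. Calls lost were those of Ripk1 (both genotypes), Tnip1 and Traf3 (wild type) and Nfkb2 (mutant) under median-ratio scaling, and of Tnip1 and Traf3 (wild type) and Nfkb2 (mutant) under quantile normalization. The wild-type count was 3 without MPP4 replicate 1, MPP4 replicate 2 or CLP replicate 3. 5 members were called in both genotypes, 83.3% of the wild-type list and 62.5% of the mutant list. This overlap, too, was not computed over all genes. From HSC to CLP in wild type, 20 members were called, or 52.6% (51.1% of all genes), of which 4 rose (19.4% of all genes) and 16 fell (31.7%), or 8 and 12 after either scaling. Median-ratio scaling ended the calls of Sqstm1, Icam1, Ikbke and Rela, and quantile normalization those of Traf3, Tnfaip3, Relb and Ikbke. In this comparison the median of all genes was -0.10 on the log2 scale as deposited, 0.00 after median-ratio scaling and 0.02 after quantile normalization, so small falls are to be read against that shift.

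**Figure D3:**
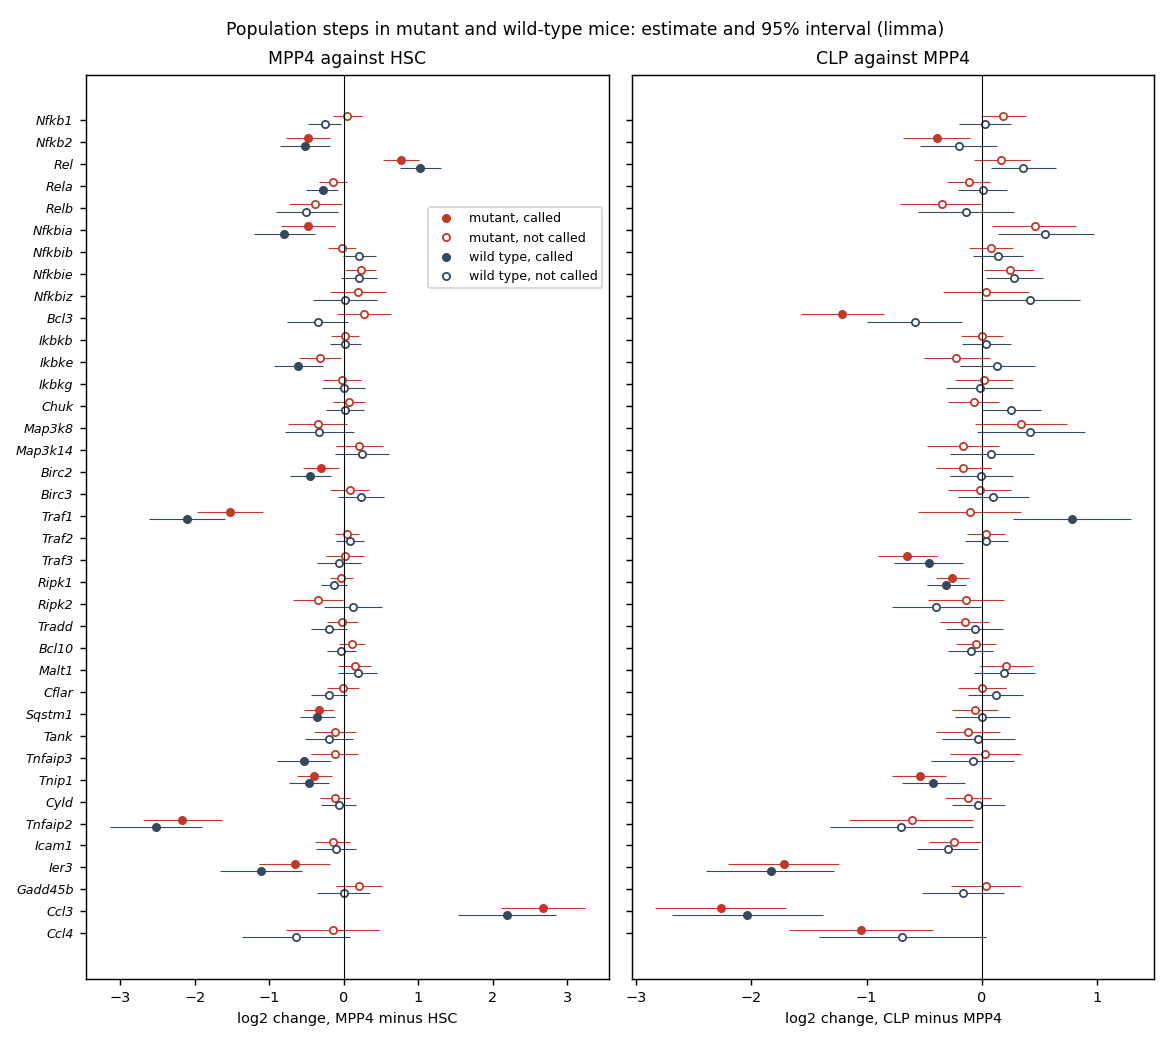
Log2 change of each of the 38 genes in MPP4 against HSC and in CLP against MPP4, for mutant and wild-type mice, with 95% intervals from limma. Filled points were called, 10 in the mutant and 13 in wild type in the first panel and 8 and 6 in the second.

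The mix of subunits differed between populations. Of the 5 subunits, Rel was the only one called as higher in any of the 5 steps tested, which did not include mutant CLP against HSC. Rel was not called in CLP against MPP4 in either genotype. It had 6.12, 8.21, 8.63 and 8.98 RPKM in mutant and 6.28, 5.94 and 7.31 in wild-type HSC. MPP4 had 14.1, 14.3, 15.8 and 12.9 RPKM in mutant and 12.6, 13.5 and 17.2 in wild-type libraries. CLP had 15.2, 15.6, 16.0 and 18.2 RPKM in mutant and 16.7, 19.9 and 19.6 in wild-type libraries. Every MPP4 and CLP library lay above every HSC library. The log2 change of MPP4 against HSC was 0.77 ± 0.12 in the mutant and 1.03 ± 0.13 in wild type (limma, adjusted p = 1.88e-05 and 3.29e-06), and that of CLP against HSC in wild type was 1.39 ± 0.13 (adjusted p = 2.83e-08).

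Nfkb2, the subunit precursor of the alternative pathway, went the other way. Its mean was 10.2 ± 1.51 RPKM in mutant and 9.66 ± 2.12 in wild-type HSC, 7.01 ± 0.751 and 6.36 ± 0.425 in mutant and wild-type MPP4, and 5.18 ± 1.27 and 5.42 ± 0.626 in mutant and wild-type CLP. It fell in MPP4 against HSC in the mutant (-0.48 ± 0.14, limma adjusted p = 0.0101) and in wild type (-0.52 ± 0.16, adjusted p = 0.0147), although the wild-type call was lost without HSC replicate 3 (-0.36, adjusted p = 0.105) or MPP4 replicate 2 (-0.48, adjusted p = 0.0527). In mutant CLP against MPP4 it fell by 0.39 (adjusted p = 0.0479), a call lost in 10 of 19 alternatives, among them each library left out but CLP replicate 2. Its exons share 12.6% of their bases with a noncoding gene and 7.08% with Psd, both on the opposite strand. Rela and Relb fell in wild-type CLP against HSC, at -0.28 ± 0.10 (limma adjusted p = 0.0293) and -0.64 ± 0.20 (adjusted p = 0.0111). Relb averaged 4.87 RPKM in wild-type HSC and 2.72 in wild-type CLP, and its change was -0.79 with a pseudocount of 0.1. Both calls were lost without HSC replicate 3, at -0.20 for Rela (adjusted p = 0.144) and -0.53 for Relb (adjusted p = 0.0551). That of Relb was also lost without HSC replicate 2 (-0.53, adjusted p = 0.0547), and that of Rela without CLP replicate 1 (-0.19, 0.167) or CLP replicate 3 (-0.28, 0.0569). Rela also fell in wild-type MPP4 against HSC (-0.28 ± 0.10, adjusted p = 0.0341), a call lost without HSC replicate 3 (-0.21, adjusted p = 0.163), MPP4 replicate 1 (-0.27, 0.0809) or MPP4 replicate 2 (-0.26, 0.0945). As a share of the summed RPKM of the 5 subunits, Rel made up 6.34% ± 1.3 in mutant and 4.82% ± 0.143 in wild-type HSC, 11.7% ± 1.01 and 12.3% ± 1.84 in mutant and wild-type MPP4, and 13.5% ± 1.65 and 15.4% ± 0.823 in mutant and wild-type CLP. Rela held the largest share in every group, between 53.3% and 60.5%.

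**Figure D4:**
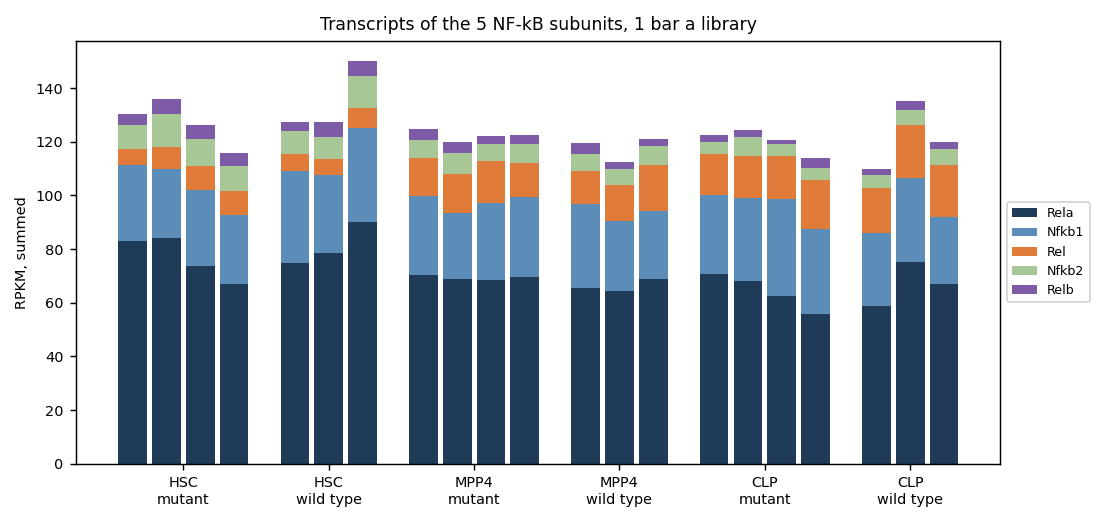
RPKM of the 5 NF-kB subunits stacked for each of the 21 libraries, grouped by population and genotype. Rela makes up more than any other subunit in every bar, and the Rel section is thinnest in the HSC bars, where its share averaged 6.34% in mutant and 4.82% in wild-type libraries.

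The IkB family did not move as 1 block. Nfkbia had 70.1, 101, 82.9 and 91.0 RPKM in mutant and 73.9, 107 and 140 in wild-type HSC. MPP4 had 56.3, 63.6, 66.8 and 57.9 RPKM in mutant and 47.9, 60.4 and 71.3 in wild-type libraries. CLP had 70.4, 97.1, 92.3 and 79.0 RPKM in mutant and 67.7, 96.1 and 102 in wild-type libraries. MPP4 had the lowest mean in both genotypes, with every MPP4 library of the mutant below every mutant HSC library. The rise from MPP4 to CLP was not called in either genotype. In wild type the highest MPP4 library (71.3 RPKM) lay above the lowest CLP library (67.7 RPKM). MPP4 against HSC gave -0.48 ± 0.17 in the mutant (limma, adjusted p = 0.0323) and -0.80 ± 0.20 in wild type (adjusted p = 0.00328), and the wild-type value was -0.58 without HSC replicate 3 (adjusted p = 0.0308). The mutant call was lost without HSC replicate 2, 3 or 4 or MPP4 replicate 1 or 4, at values of -0.40 to -0.50.

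Nfkbie, the inhibitor IkB epsilon, rose in wild-type CLP against HSC, averaging 21.1 ± 2.37 RPKM in CLP and 14.8 ± 2.43 in HSC (log2 change 0.48 ± 0.12, limma adjusted p = 0.00181). Nfkbib rose in the same comparison, at 16.9 ± 1.21 RPKM in CLP and 13.1 ± 1.95 in HSC (0.35 ± 0.11, adjusted p = 0.0093), a call lost without HSC replicate 1 (0.25, adjusted p = 0.0664). Bcl3 fell, at 5.13 ± 0.810 RPKM in wild-type CLP and 11 ± 3.65 in wild-type HSC (-0.93 ± 0.20, adjusted p = 0.000527, and -0.70 without HSC replicate 3). In mutant mice Bcl3 had 4.27, 4.64, 2.87 and 3.94 RPKM in CLP and 12.1, 10.1, 7.61 and 12.0 RPKM in MPP4. The groups did not overlap, and the log2 change was -1.21 ± 0.17 (adjusted p = 2e-05). In wild type the same step was -0.58 and was not called, and the difference between the genotypes was the -0.63 ± 0.26 given above, which was not called either.

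Few of the kinases moved. Of the 6 genes for IkB kinases and the kinases above them, Ikbke was the only one called in any step. This inducible kinase fell in wild-type MPP4 against HSC, at 12.7 ± 1.73 RPKM in MPP4 and 19.9 ± 1.90 in HSC (-0.61 ± 0.16, limma adjusted p = 0.00429). In wild-type CLP against HSC it fell by 0.47 on the log2 scale (adjusted p = 0.0163), a call lost without HSC replicate 3 (-0.40, adjusted p = 0.0674) or CLP replicate 2 (-0.42, adjusted p = 0.0623).

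Among the adaptors and ligases, Traf1 spanned 8.47 times between groups. It had 9.21, 6.90, 9.59 and 8.41 RPKM in mutant and 5.81, 6.52 and 11.2 in wild-type HSC. Levels in MPP4 are given above and all lay below those of HSC. CLP had 2.68, 1.60, 1.94 and 2.08 RPKM in mutant and 1.23, 2.55 and 4.10 in wild-type libraries, which overlapped MPP4. Traf1 fell in MPP4 against HSC by 1.53 in the mutant (± 0.21, limma adjusted p = 8.08e-06) and by 2.10 in wild type (± 0.25, adjusted p = 9.3e-07), and by 2.81 in wild type with a pseudocount of 0.1. It was the 1 member to rise in wild-type CLP against MPP4 (0.78 ± 0.25, adjusted p = 0.0392), but the call was lost without MPP4 replicate 1 (0.77, adjusted p = 0.106), MPP4 replicate 2 (0.69, 0.142), CLP replicate 2 (0.76, 0.107) or CLP replicate 3 (0.50, 0.224).

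Traf3, which restrains the alternative pathway, fell in mutant CLP against MPP4, where it averaged 7.26 ± 0.943 RPKM in CLP and 11.9 ± 0.904 in MPP4 (-0.65 ± 0.12, limma adjusted p = 0.000496). In wild type the averages were 7.28 ± 0.769 RPKM in CLP and 10.4 ± 1.21 in MPP4 (-0.46 ± 0.14, adjusted p = 0.0358), and this call was lost without any 1 of MPP4 replicates 1 and 2 and CLP replicates 2 and 3, at -0.40 to -0.45. Ripk1 fell by a small and tight amount in the same step, -0.26 ± 0.07 in the mutant (adjusted p = 0.0095) and -0.31 ± 0.08 in wild type (adjusted p = 0.0123), the wild-type call being lost without MPP4 replicate 1 (-0.28, adjusted p = 0.0649). A processed pseudogene overlaps 7.5% of its exon bases. Birc2, a ubiquitin ligase of the TNF receptor complex, fell in wild-type MPP4 against HSC (-0.45 ± 0.13, adjusted p = 0.0101), a call lost without HSC replicate 1 (-0.36, adjusted p = 0.054) or MPP4 replicate 2 (-0.36, adjusted p = 0.0635). In the mutant its fall was 0.30 (adjusted p = 0.0417) and the call was lost in 9 of 19 alternatives. In the mutant step Sqstm1 fell by 0.33 (adjusted p = 0.00929), a call kept in all 19 alternatives. In wild type it fell by 0.36 (adjusted p = 0.0148), a call lost without HSC replicate 3 (-0.24, adjusted p = 0.108), MPP4 replicate 1 (-0.32, 0.0554) or MPP4 replicate 2 (-0.28, 0.0836). Its fall in wild-type CLP against HSC was also called. That call was lost without HSC replicate 3 (-0.23, limma adjusted p = 0.0911) or CLP replicate 1 (-0.29, 0.0614). The exons of Sqstm1 share 20.5% of their bases with Mrnip on the opposite strand. Malt1, the protease of the antigen receptor branch, rose in wild-type CLP against HSC (0.38 ± 0.13, adjusted p = 0.0159), a call lost without HSC replicate 2 (0.30, 0.0792) or CLP replicate 3 (0.31, 0.0724), and marginally without CLP replicate 1 (0.35, 0.0509).

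Of the 3 negative regulators, Tnip1, which binds the Tnfaip3 protein, fell at each step. It had 19.9, 22.9, 21.3 and 19.0 RPKM in mutant and 18.7, 19.1 and 22.1 in wild-type HSC. MPP4 had 14.4, 18.1, 14.7 and 15 RPKM in mutant and 12.3, 16.7 and 13.7 in wild-type libraries. CLP had 9.21, 11.5, 10.5 and 10.2 RPKM in mutant and 8.67, 12.4 and 10.2 in wild-type libraries. The HSC libraries did not overlap those of MPP4 in either genotype. MPP4 against HSC gave -0.40 ± 0.11 in the mutant (limma, adjusted p = 0.00751) and -0.47 ± 0.13 in wild type (adjusted p = 0.00625), and CLP against MPP4 gave -0.54 ± 0.11 (adjusted p = 0.001) and -0.42 ± 0.13 (adjusted p = 0.0356), the last being lost without any 1 of MPP4 replicates 2 and 3 and CLP replicates 1 and 3, at -0.30 to -0.44. Tnfaip3 fell in wild-type MPP4 against HSC, averaging 4.52 ± 0.261 RPKM in MPP4 and 7.02 ± 1.02 in HSC (-0.53 ± 0.17, adjusted p = 0.0182), a call lost without HSC replicate 2 (-0.43, adjusted p = 0.085) or, by a small margin, MPP4 replicate 2 or 3. Cyld, a deubiquitinase, was not called.

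Of the 4 target genes, Tnfaip2 and Ier3 had the largest falls of the 38 members in wild-type CLP against HSC. Tnfaip2 had 34.0, 26.0, 21.7 and 27.4 RPKM in mutant and 29.1, 28.9 and 23.5 in wild-type HSC. MPP4 had 4.72, 6.28, 4.24 and 5.87 RPKM in mutant and 3.26, 6.37 and 2.73 in wild-type libraries. Every MPP4 library lay below every HSC library, and the CLP values given above overlapped those of MPP4. MPP4 against HSC gave -2.17 ± 0.26 in the mutant (limma, adjusted p = 1.03e-06) and -2.52 ± 0.30 in wild type (adjusted p = 9.85e-07), and CLP against HSC in wild type gave -3.22 ± 0.30 (adjusted p = 1.63e-08).

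Ier3, an early response gene that protects cells from TNF-induced death, fell at both steps. It had 38.8, 31.4, 30.2 and 34.5 RPKM in mutant and 35.2, 28.5 and 70.5 in wild-type HSC. MPP4 had 24.4, 19.4, 19.9 and 20.1 RPKM in mutant and 22.3, 14 and 20.6 in wild-type libraries. CLP had 5.34, 4.69, 7.19 and 5.52 RPKM in mutant and 5.14, 2.68 and 6.38 in wild-type libraries. The 3 populations did not overlap in either genotype. CLP against MPP4 gave -1.72 ± 0.23 in the mutant (limma, adjusted p = 9.38e-06) and -1.83 ± 0.26 in wild type (adjusted p = 5.4e-05). MPP4 against HSC gave -0.66 ± 0.23 in the mutant (adjusted p = 0.0272) and -1.11 ± 0.26 in wild type (adjusted p = 0.00219), the wild-type value being -0.73 without HSC replicate 3 (adjusted p = 0.0201). The mutant call was lost without HSC replicate 1 or 4 or any of MPP4 replicates 2, 3 and 4, at -0.59 to -0.65. Icam1, an adhesion molecule, was called in wild-type CLP against HSC (-0.40 ± 0.13, adjusted p = 0.0127), a call lost without HSC replicate 3 (-0.26, adjusted p = 0.0999) or CLP replicate 2 (-0.32, adjusted p = 0.0661), and 20.2% of its exon bases overlap an antisense transcript. Gadd45b was not called in any step.

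The chemokine Ccl3 peaked in MPP4. It had 4.21, 5.69, 6.60 and 5.92 RPKM in mutant and 2.71, 6.07 and 8.13 in wild-type HSC. Its MPP4 levels, given above, started at 31.9 RPKM in mutant and 23.5 RPKM in wild-type libraries. CLP had 4.05, 8.71, 9.57 and 10.2 RPKM in mutant and 3.60, 7.06 and 7.91 in wild-type libraries. No MPP4 library overlapped either other population. MPP4 against HSC gave 2.68 ± 0.27 in the mutant (limma, adjusted p = 1.26e-07) and 2.19 ± 0.31 in wild type (adjusted p = 1.19e-05). CLP against MPP4 gave -2.26 ± 0.27 in the mutant (adjusted p = 2.52e-06) and -2.04 ± 0.31 in wild type (adjusted p = 0.000109).

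Ccl4, its neighbour, had another order. The RefSeq spans of the pair, introns included, share 755 bases, and the kit does not mark strand. Ccl4 averaged 19.4 ± 2.65 RPKM in mutant and 25 ± 15.1 in wild-type HSC, 17.8 ± 4.62 and 14.2 ± 2.32 in mutant and wild-type MPP4, and 8.42 ± 3.56 and 8.84 ± 3.42 in mutant and wild-type CLP. It fell in mutant CLP against MPP4 (-1.05 ± 0.30, limma adjusted p = 0.0141), a call lost without MPP4 replicate 3 (-0.91, adjusted p = 0.0535) or CLP replicate 1 (-0.86, adjusted p = 0.0575). In wild-type CLP against HSC it fell by 1.33 (adjusted p = 0.00319) and by 0.89 without HSC replicate 3 (adjusted p = 0.0324). Monocyte and macrophage markers, 8 of 11 with a row, summed to 356 to 456 RPKM in mutant and 413 to 643 in wild-type HSC, to 354 to 544 and 321 to 373 in mutant and wild-type MPP4, and to 166 to 571 and 182 to 252 in mutant and wild-type CLP. Lyz2 dominated these sums, averaging 450 RPKM in wild-type HSC and 244 in wild-type MPP4. The mean of log2(RPKM + 1) over the 8 markers was instead higher in MPP4 than in HSC. It was 2.96 to 3.69 in mutant and 3.02 to 3.64 in wild-type HSC, and 3.96 to 4.76 and 3.78 to 4.20 in MPP4. In CLP it was 3.02 to 4.66 in mutant and 2.79 to 3.91 in wild-type libraries. None of the 8 stood at 0 in every library of a group, and their part in the chemokine and target gene levels was not tested.

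**Figure D5:**
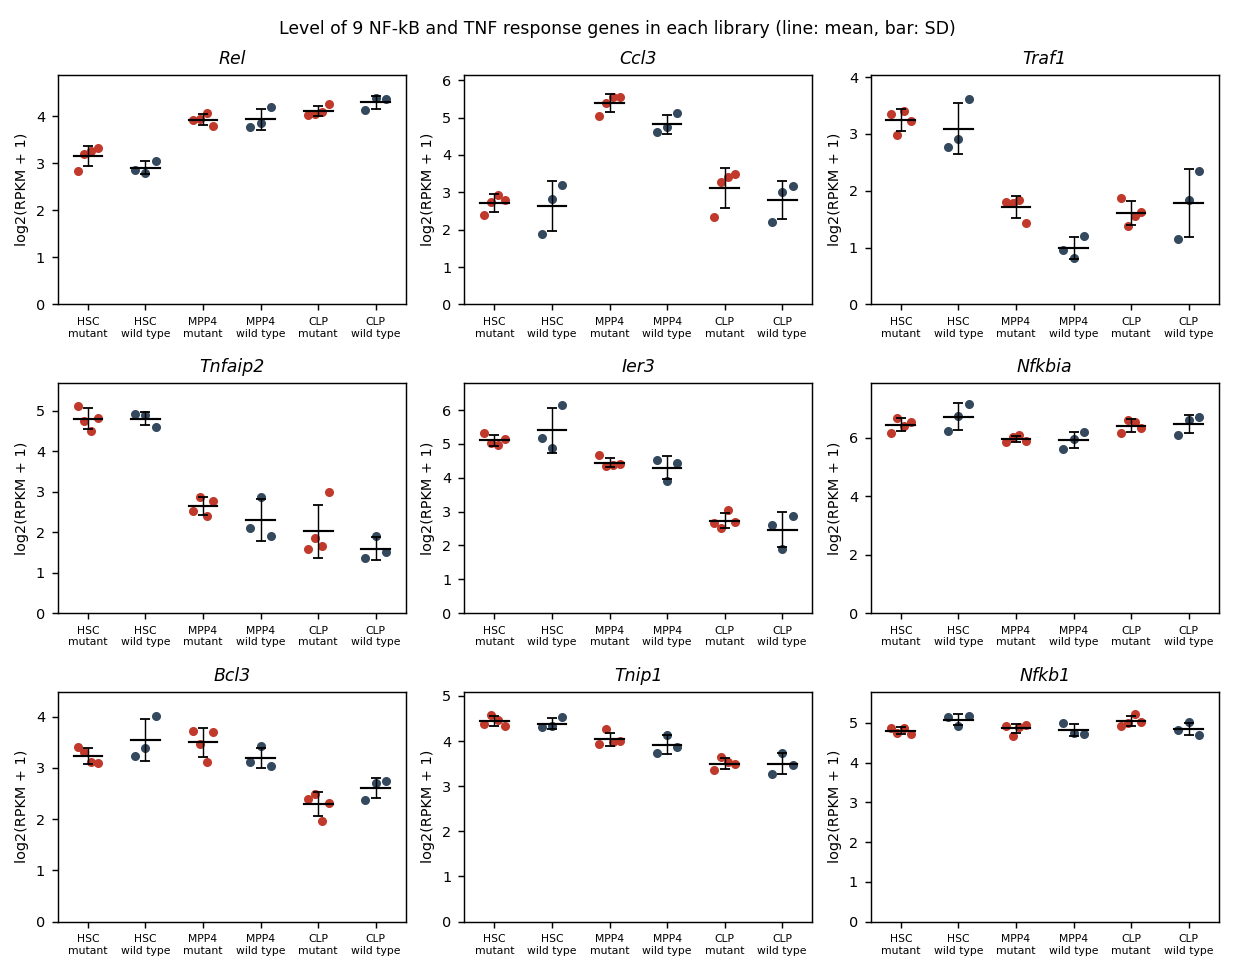
Level of 9 of the genes in each of the 21 libraries, as log2(RPKM + 1), with the group mean and SD, mutant in red and wild type in a dark colour. Tnfaip2 and Traf1 drop after HSC and Ier3 drops at each step, Ccl3 is high in MPP4 alone, Rel is lowest in HSC, and the genotypes overlap in most panels.

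Genes of the pathway outside the 38 were also read by list. Their values were not read with a library left out, so calls that rest on 1 library are not marked. Of other receptors and ligands 8 of 16 had a row, of other adaptors, kinases and ubiquitin enzymes 31 of 31, and of other target genes 18 of 27. None was called between mutant and wild type in any population, with 1, 1 and 1 of the receptors and ligands, 1, 3 and 2 of the adaptors and 0, 3 and 4 of the targets at an unadjusted p under 0.05 in HSC, MPP4 and CLP. Of all genes, 4.45%, 8.14% and 4.41% were under that limit in HSC, MPP4 and CLP. The shares were 12.5% in each population for receptors and ligands and 3.23%, 9.68% and 6.45% for adaptors. For targets they were 0%, 16.7% and 22.2%. Of the 18 targets, 11 had a positive change in MPP4 (median 0.03) and 9 in CLP (median 0.01), so they had no common direction. In wild-type MPP4 against HSC, 2 receptors and ligands rose and 4 fell, 75% of the 8 beside 39.3% of all genes. Il1r1, the signalling receptor of interleukin-1, averaged 35.8 ± 4.02 RPKM in wild-type MPP4 and 3.63 ± 1.40 in wild-type HSC (log2 change 3.03 ± 0.16, limma adjusted p = 1.57e-11). It averaged 12.5 ± 0.295 RPKM in wild-type CLP, so it shared with Ccl3 a maximum in MPP4.

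Both TNF receptors, named after their values were seen, fell along the path. Tnfrsf1a averaged 69.3 ± 14.7 RPKM in wild-type HSC, 52.0 ± 2.67 in MPP4 and 35.8 ± 2.21 in CLP, and Tnfrsf1b 41.8 ± 4.66, 31.6 ± 2.41 and 24.2 ± 1.37. Their log2 changes in CLP against HSC were -0.92 ± 0.11 and -0.76 ± 0.10 (limma, adjusted p = 5.66e-07 and 1.77e-06). Ltb, a ligand of the alternative pathway, averaged 17.7 ± 2.12 RPKM in wild-type MPP4 and 61.4 ± 31.6 in wild-type HSC, and fell by 1.63 in that step (adjusted p = 6e-05) and by 1.19 in CLP against MPP4 (adjusted p = 0.00415). Among adaptors 3 rose and 5 fell in wild-type MPP4 against HSC, 25.8% of the 31 beside 39.3% of all genes. The smallest p-values were those of a rise of Casp8 (0.68 ± 0.06, limma adjusted p = 5.06e-08) and falls of Tbkbp1 (-1.61 ± 0.20, adjusted p = 1.75e-06) and Tnip2 (-0.65 ± 0.10, adjusted p = 3.26e-05).

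Other targets did not follow Tnfaip2 and Ier3 as a group. In wild-type MPP4 against HSC 3 rose and 4 fell, 38.9% of the 18 beside 39.3% of all genes. In CLP against MPP4 3 rose and 1 fell, 22.2% beside 13.1% of all genes. Ccr7, a chemokine receptor of lymphoid cells, averaged 0.431 ± 0.374 RPKM in wild-type HSC, 12.4 ± 3.40 in MPP4 and 31.5 ± 4.97 in CLP, rising by 3.23 ± 0.26 and then by 1.29 ± 0.26 (limma, adjusted p = 6.84e-09 and 0.00191). Sdc4, a cell surface proteoglycan, rose by 1.22 ± 0.20 and 1.76 ± 0.20 in the same steps (adjusted p = 7.16e-05 and 3.66e-06). Ccrl2, a chemerin-binding receptor, fell by 0.98 and 0.85 (adjusted p = 0.000101 and 0.00137), and Bcl2l1, which encodes a survival protein, fell by 0.98 in the first step (adjusted p = 0.000117). Of the 15 immediate early and heat shock genes, 2 rose and 4 fell in wild-type MPP4 against HSC, or 40% beside 39.3% of all genes. Egr1 averaged 2.02 ± 0.726 RPKM in MPP4 and 18.8 ± 11.2 in HSC (-2.61 ± 0.32, limma adjusted p = 1.91e-06).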

How the data were processed

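Per the labels' protocols, RNA of sorted cells was made into cDNA with the SMART-seq v4 kit, which does not mark strand, and into libraries with NexteraXT. Reads were aligned with STAR to mm10, per the submitters' processing notes. The authors deposited RPKM for 11628 genes. The counting tool, its annotation and the choice of these genes are each not given in the sources used here. Neither counts nor depth could be recovered, so no counting interval is given. Entrez identifiers restored 16 symbols that had become dates, and 11619 matched RefSeq. Genes with at least 1 RPKM in at least 3 libraries were kept (132 removed). Values were tested as log2(RPKM + 1), which understates changes of low genes, in limma 3.58.1 (R 4.3.3), with 6 group means over all 21 libraries, a variance trend, and 15 residual and 4.62 prior degrees of freedom, two-sided, with Benjamini-Hochberg adjustment over 11496 genes. The code was tested on simulated data. Members and lists were chosen with earlier results of these data known. In each comparison called members are named from the largest change down, up to 12 in full, in genotype comparisons and their differences the 5 members with the smallest p, and of other lists up to 4 called genes by smallest p. The labels give each library an age and a sex but do not say that each came from its own mouse, so p-values measure the spread between libraries, which may be technical. Both wild-type steps share the MPP4 libraries, and so do both mutant steps. Alternatives were other pseudocounts, filters, scalings, library weights, sex and age terms, replicate blocks, fewer groups and each library left out.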

Additional observations from a re-analysis of the deposited data

Results flagged for a closer look

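In groups of 4 libraries, 1 library lay far from the other 3 for 8 of the 114 combinations of member and group looked at, where chance gives about 5%. No explanation was tested. Mutant MPP4 replicate 2, which also had the most neutrophil marker RNA of its group (2340 RPKM), accounted for 3 of them: Nfkb1 was 24.6 RPKM, where the others had 28.8 to 29.5, Ikbke was 10.5 RPKM, where they had 15.9 to 16.8, and Tnip1 was 18.1 RPKM, where they had 14.4 to 15. Mutant MPP4 replicate 4 had 1.70 RPKM of Traf1, where the others had 2.43 to 2.56, and mutant MPP4 replicate 1, which had 182 RPKM of megakaryocyte markers where the others had 23.8 to 28.7, had 24.4 RPKM of Ier3, where the others had 19.4 to 20.1. Mutant CLP replicate 2 had 7.09 RPKM of Nfkb2, where the others had 4.53 to 4.56, and 4.77 RPKM of Gadd45b, where they had 5.87 to 6.09. Mutant CLP replicate 4 had 8.92 RPKM of Ikbkb, where the others had 10.7 to 11.1.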

How the results depend on the processing

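No member was called between the genotypes, or in a difference of genotype effects, under any alternative run, including each library left out in turn (0 to 0). Of 57 called values, 33 were kept under every alternative and none changed sign. The pseudocounts, the filters, sex and age terms and both block fits lost 0 of the 57, median-ratio scaling lost 11, quantile normalization 9, library weights 2 and fits on only the groups compared 12, and leaving out 1 library lost 67 of 378. Fitted on its own groups, wild-type CLP against MPP4 called 3 members in place of 6. With 1 library left out, members called ranged from 8 to 13 in wild-type MPP4 against HSC (8 without MPP4 replicate 2), from 3 to 7 in wild-type CLP against MPP4 (3 without MPP4 replicate 1 or 2 or CLP replicate 3), from 17 to 21 in wild-type CLP against HSC, from 7 to 9 in mutant MPP4 against HSC and from 6 to 9 in mutant CLP against MPP4. The cause was not tested. Replicate numbers did not establish pairing. For this check, libraries were correlated after each gene's group mean was subtracted. Same-numbered libraries of 1 genotype then correlated at 0.0941 to 0.481 between populations, over 0.1 in 19 of 21 pairs (median 0.207). Libraries of other numbers in the same genotype were over 0.1 in 7 of 54 pairs (median -0.0962). Same-numbered libraries of opposite genotypes in 1 population were over 0.1 in 5 of 9 pairs, at -0.155 to 0.453 (median 0.145). What a shared number marks was not tested. Mutant number 4 has an age of 10 weeks in CLP and 12 in HSC and MPP4. With the replicate block as a random effect (correlation 0.21), 0 members were called in each genotype comparison, and 15, 9 and 23 in the wild-type steps and 11 and 10 in the mutant ones, in the order above. With 3 or 4 libraries a group and depth unknown, changes of genes near 1 RPKM, such as Traf1 in MPP4, are the least certain.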
